A study of Mus musculus with 18 samples.

Results

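The genes described here encode the constitutive proteasome: the subunits of the 20S core and the 19S cap, the chaperones that assemble them, and the activators and inhibitor that bind the core. They are the rows whose symbol starts with Psma, Psmb, Psmc, Psmd, Psme, Psmf or Psmg followed by a number, without the immunoproteasome subunits Psmb8, Psmb9 and Psmb10, and with at least 10 counts summed over 18 libraries. Of 29717 rows, 45 symbols matched after the 3 immunoproteasome genes were left out, and 44 had enough counts. The gene that did not was Psmb11, the thymus-specific catalytic subunit, which had 2 counts in all, 1 each in 1 MPP1 control and 1 MPP1 mutant library.

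Libraries were made by CEL-Seq2, which tags each captured RNA molecule near its 3′ end, from mouse (BALB/c) lineage-negative bone marrow cells sorted straight into lysis buffer. HSC are haematopoietic stem cells, and MPP1 and MPP4 are multipotent progenitor populations, MPP4 being the lymphoid-primed one. The control libraries were labelled wild type. The mutant libraries were labelled dnmt1-/-, whereas the series text describes a designed missense change in Dnmt1, the maintenance DNA methyltransferase, that lowers its function. HSC had 3 control and 3 mutant libraries, MPP1 had 2 and 2, and MPP4 had 4 and 4. The labels gave 3 sequencing batches, each holding both genotypes. Column names also carried 8 ID numbers, 4 per genotype, which recur across populations; nothing states that a number is an animal, nor were age, sex or the number of cells per library used here. The p-values below therefore reflect library-to-library spread, whether biological or technical.

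The proteasome is the protease that destroys proteins marked with ubiquitin. Its 20S core is a barrel of α rings, which gate entry, around β rings, of which 3 subunits cut protein chains. The 19S cap binds ubiquitin chains, removes them and unfolds the substrate with a ring of ATPases. In many cells a fall in proteasome activity is answered by the factor NFE2L1 (Nrf1), which binds antioxidant response elements with small Maf proteins and raises the subunit genes together. Blood stem cells are known for low protein synthesis and for sensitivity to disturbed protein quality control.

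The promoters of the members were searched for that element because it is the sequence by which the subunit genes are known to be raised together. The 300-base windows came from RefSeq (GRCm38.p6, 250 bases before to 50 after each gene start). In them 36 of the 44 members matched an entry, and Psma8 was among those without one. The core TGACNNNGC, on either strand, was in 6 of 36 members (16.7%) and in 14% of 27025 genes. The 6 were Psmb5, Psmb6, Psmc6, Psmd12, Psmd9 and Psme4. The CCAAT box (CCAAT, either strand) was in 12 of 36 (33.3%) and in 41.1% of all genes. The ratio of observed to expected CpG, from the highest window of each gene, had a median of 0.787 in the members and 0.415 in all genes. All genes here are those with a window, expressed or not, so the members were not compared with other expressed genes. The 6 members with the element core include a pair of the catalytic subunits. The bases just before the RefSeq starts follow, 5′ to 3′ on the gene's strand with the element in capitals, for Psmb6 (chr11:70525303-70525356, plus strand) and Psmb5 (chr14:54617996-54618087, minus strand).
Psmb6: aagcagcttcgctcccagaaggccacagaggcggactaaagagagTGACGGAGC
Psmb5: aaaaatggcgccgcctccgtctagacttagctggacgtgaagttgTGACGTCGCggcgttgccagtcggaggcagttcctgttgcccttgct
These matches describe the letters in the window and not a bound site.

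Libraries held 354642 to 1943562 counts (median 745850), and the members made up 0.290% to 0.849% of them. Levels are counts per 1000000 (CPM) after TMM scaling of library sizes, and since a molecule is counted once at its 3′ end there is no length factor. The sorted populations carried their markers: Flt3 was at 408 to 515 CPM in MPP4 controls and at 21.8 to 39.9 CPM in HSC controls, and Procr was at 8.17 to 35.3 CPM and 94.0 to 106 CPM in the same groups. Dnmt1 RNA was present in every group (99.8 to 408 CPM), and for a missense allele its level does not check the labels. Several libraries carried transcripts typical of other cells. The summed level of 10 erythroid genes was 13716 CPM in HSC mutant 1, with none of the 10 at 0, against 90.2 to 384 CPM in the other 5 HSC libraries, 31875 CPM in MPP1 control 2, 45278 CPM in MPP4 control 4 and 238212 CPM in MPP4 mutant 2. The summed level of 11 B cell genes was 35554 CPM in HSC control 1 against 24.5 to 78.2 CPM in the other HSC libraries, and it was 12267 CPM in MPP4 mutant 3 against 507 to 717 CPM in the other MPP4 mutants. The summed level of 6 neutrophil genes was 36016 CPM in MPP4 mutant 2, 7266 CPM in MPP1 control 2, 4975 CPM in MPP4 control 4 and 1307 CPM in HSC mutant 1, against 2.73 to 85.6 CPM in the other 14 libraries. HSC mutant 1 and MPP4 mutant 1, both of batch A and carrying the same ID number, stood apart in the proteasome genes, so the main shifts and the differences of several named members are also given without them.

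The members spanned a wide range of levels. Psme1, a subunit of the PA28 activator, had the highest mean (383 CPM, 256 to 674 CPM over the 18 libraries), and it was the highest member in 10 of the 18. Next by mean came the β subunits Psmb1 (mean 297 CPM) and Psmb4 (289 CPM) and the α subunit Psma7 (270 CPM, the lowest library at 204 CPM). The ranges of all 4 overlapped over the libraries. Where Psme1 was not the highest member, it was Psmb1 in 3 libraries, Psmb4 in 2, Psma7 in 2 and Psmd2 in 1. The order of these genes within libraries was not tested. At the other end were the 19S assembly chaperones Psmd9 (38.3 CPM) and Psmd10 (35.7 CPM), and last Psma8 (15.5 CPM). The coefficient of variation over the libraries was lowest for the 19S scaffold subunit Psmd1 (17.5%) and highest for Psma8 (81.9%) and the catalytic Psmb5 (74.9%).

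**Figure D1:**
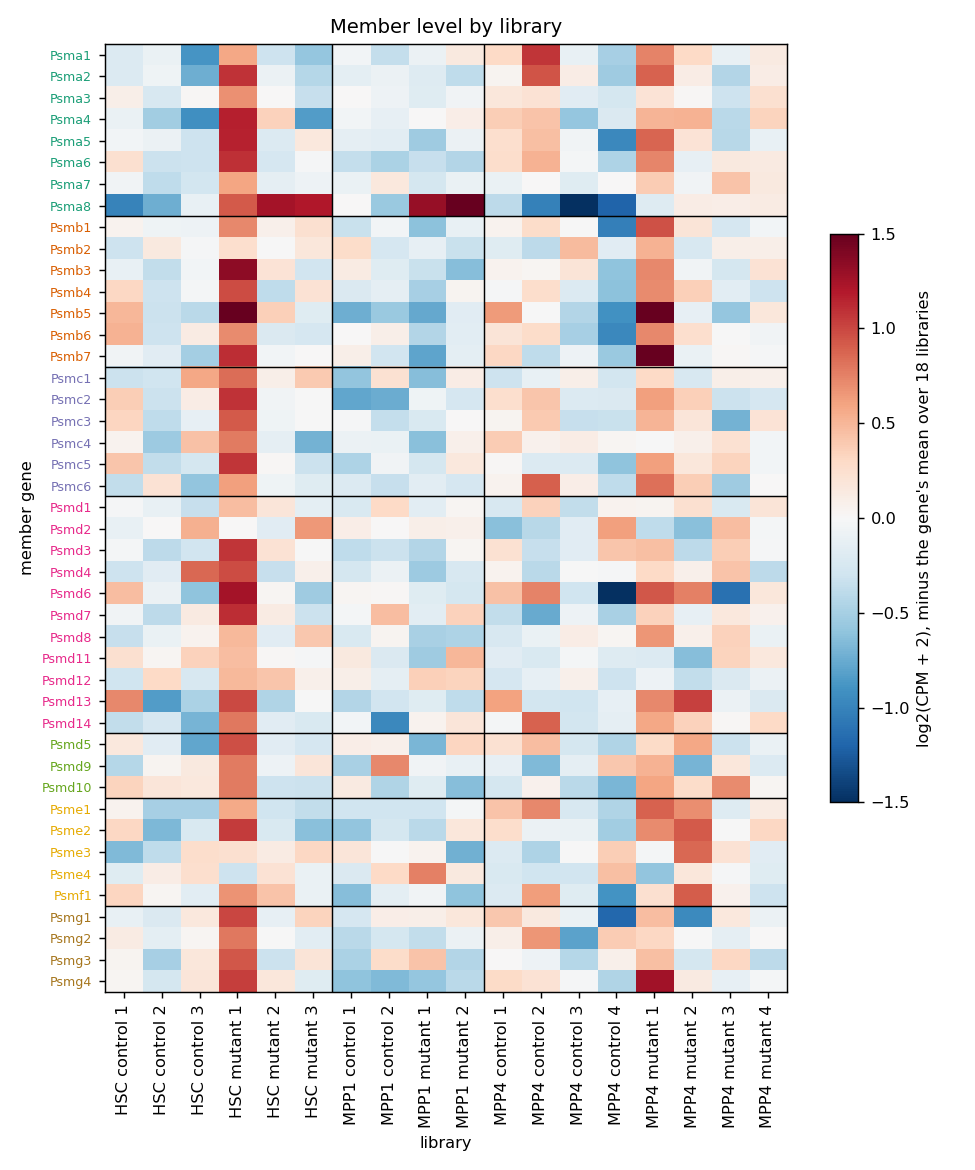
Level of each of the 44 members (rows, grouped by role and separated by lines) in each of the 18 libraries (columns), as log2(CPM + 2) minus that gene's mean. The column of HSC mutant 1 is above the mean for most genes, and the row of Psma8 is high in the HSC and MPP1 mutants.

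The summed level of the 44 members was 5446, 4568 and 5020 CPM in the HSC controls and 9352, 5138 and 5220 CPM in the HSC mutants. HSC mutant 1 was far above the other 5, which overlapped between genotypes. In MPP1 it was 4781 and 4971 CPM in controls and 4507 and 5134 CPM in mutants, with the control values inside the range of the mutants. In MPP4 it was 5616, 6302, 4872 and 4436 CPM in controls and 8078, 6182, 5303 and 5423 CPM in mutants. MPP4 mutant 1, which shares its ID number and batch with HSC mutant 1, was the highest here. The other 16 libraries lay between 4436 and 6302 CPM (median 5136 CPM). HSC mutant 1 was the highest HSC library for 40 of the 44 members and the highest of all 18 libraries for 27, and MPP4 mutant 1 was the highest MPP4 library for 22. The erythroid RNA of HSC mutant 1 (13716 CPM) was not seen in MPP4 mutant 1 (85.5 CPM); the part of such RNA in the raised sums was not tested. In these bulk libraries, more cells of a type and more RNA per cell cannot be told apart.

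**Figure D2:**
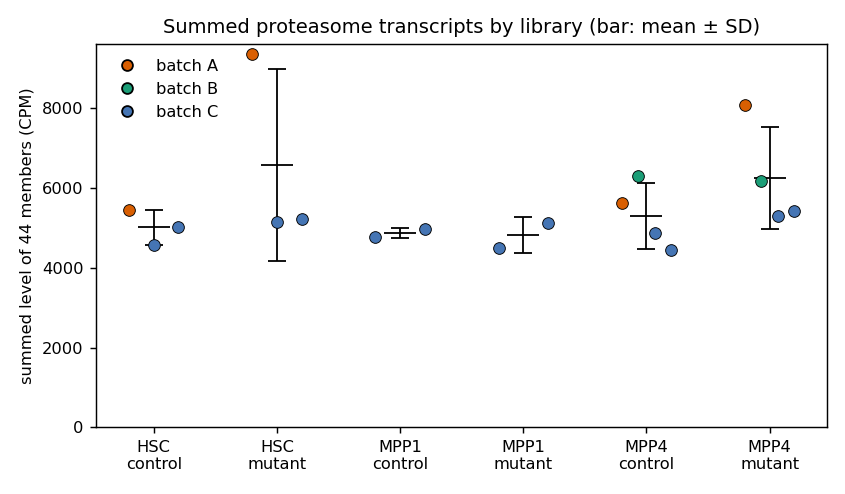
Summed CPM of the 44 members in each library by group, coloured by sequencing batch, with the mean and SD of each group. The batch A mutants of HSC (9352 CPM) and MPP4 (8078 CPM) lie above all other libraries, which reach 6302 CPM.

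The first question of the design is whether the Dnmt1 mutation changed these genes. No member passed the threshold in any population (edgeR quasi-likelihood, Benjamini-Hochberg adjusted p under 0.05 over all genes tested). In HSC this was 0 of 44, beside 0.241% of 9147 genes, in MPP1 0 of 44, beside 0.225% of 8004, and in MPP4 0 of 43, beside 0.0852% of 9392. At an unadjusted p under 0.05 the edgeR counts were 7, 2 and 6 members, beside 10%, 4.86% and 7.11% of all genes. With DESeq2 no member was called in any of the 3 populations either. Psma8, the member missing from the MPP4 test, did not reach the minimum count there.

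In HSC, 40 of the 44 fitted differences lay above 0, beside 51.3% of all genes, with a median log2 difference of 0.37 beside 0.01 for all genes. Each role group had a median above 0, namely 0.45 in 8 α subunits, 0.36 in 7 β subunits, 0.33 in 6 ATPases, 0.37 in 11 non-ATPase subunits of the cap, 0.39 in 3 cap assembly chaperones, 0.29 in 5 activator and inhibitor genes and 0.43 in 4 core assembly chaperones. The shift was large in batch A, where 1 mutant is compared with 1 control (median 0.79, 43 of 44 members higher), and small in batch C (median 0.13, 34 of 44 higher, 2 libraries a genotype). Without HSC mutant 1 the median was 0.15 and 32 of 44 members lay above 0. The role groups then had medians of 0.17, 0.22, 0.091, 0.15, -0.045, 0.16 and 0.12 in the same order, so the cap assembly chaperones were no longer above 0. The mutants also had higher summed levels of 13 S phase genes, at 1602 to 2238 CPM against 987 to 1568 CPM in controls, and of 13 G2 and mitosis genes, at 1209 to 1766 CPM against 594 to 1074 CPM. The part of cell division in the member levels was not tested.

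In MPP1 the members were spread evenly, with 23 of 44 above 0 (49.6% of all genes) and a median of 0.02. The β subunits had 6 of 7 below 0 (median -0.30), and the 4 core assembly chaperones were all above 0 (median 0.15), with no call in either group. The 13 S phase genes summed to 1239 and 1775 CPM in the MPP1 mutants and 1767 and 1891 CPM in the controls. For the 13 G2 and mitosis genes it was 1068 and 1561 CPM against 1534 and 1951 CPM. The genotypes overlapped in both sums, with the lowest value in a mutant and the highest in a control. In MPP4, 38 of 43 members lay above 0 (49.5% of all genes) with a median of 0.20. All 7 β subunits (median 0.33) and all 7 α subunits tested (median 0.13) were above 0. Within batches the MPP4 median was 0.46 in A (41 of 44 higher), -0.05 in B (18 of 44) and 0.18 in C (36 of 44). With batches B and C alone the fitted median was 0.08, with 33 of 43 members above 0. Without MPP4 mutant 1 it was 0.089, with 34 of 44 above 0. The 13 G2 and mitosis genes summed to 3511 to 4050 CPM in the MPP4 mutants and 1622 to 2994 CPM in the controls, with no overlap. The 13 S phase genes overlapped, at 2314 to 3275 CPM in the MPP4 mutants and 1826 to 2983 CPM in the controls. The part of cell division in the member levels was not tested.

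**Figure D3:**
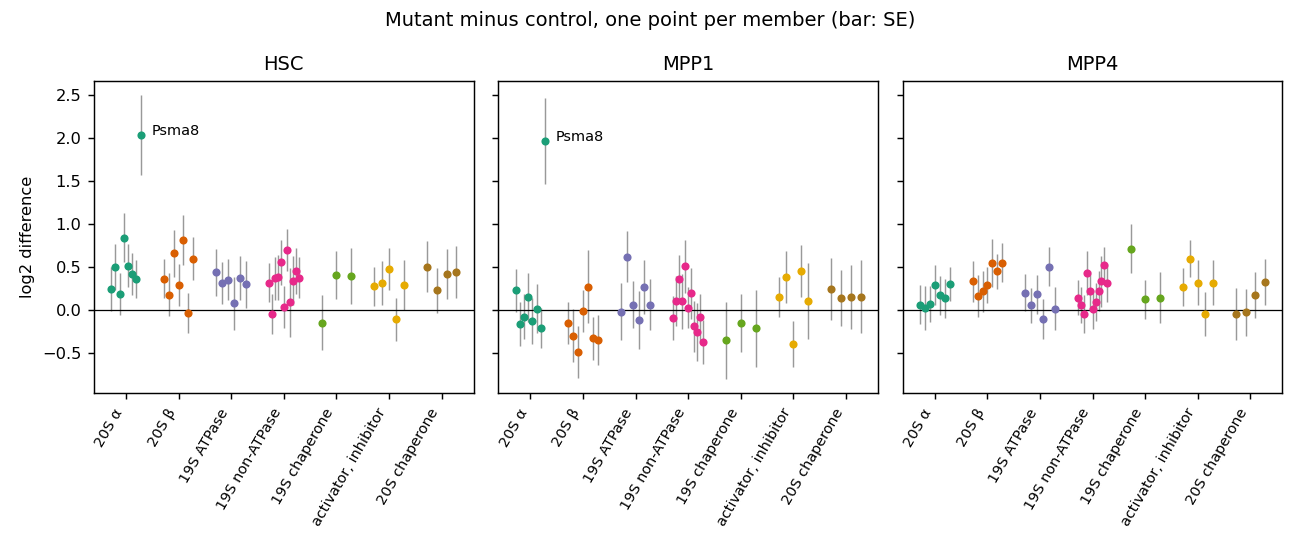
Fitted log2 difference, mutant minus control, of each member with its standard error, by role and population. Psma8 stands at 2.03 in HSC and 1.96 in MPP1, above all other members; it was not tested in MPP4, where the highest member is at 0.71.

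Leaving Psma8 aside, the fits set bounds on each member. The 95% interval (estimate ± 1.96 standard errors) lay wholly within a 2-fold change in either direction for 32 of 43 members in HSC, 36 of 43 in MPP1 and 40 of 43 in MPP4. The median standard error was 0.26, 0.30 and 0.23 on the log2 scale in these fits.

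Among the α subunits, Psma8 had the largest fitted difference of all members in HSC and MPP1. It encodes the germline form of the α4 subunit, which takes the place of Psma7 in the proteasomes of male germ cells, and lies at chr18:14706151-14762301 (plus strand, mm10). In HSC it was at 4.99, 6.45 and 10.9 CPM in controls and 24.6, 31.3 and 30.1 CPM in mutants, or 7.45 ± 3.08 and 28.7 ± 3.60 CPM (mean ± SD, n = 3 each). Every HSC mutant library was above every control, from 14 counts in the controls and 81 in the mutants. In MPP1 it was at 12 and 7.48 CPM in controls (16 and 4 counts) and 32.6 and 48.7 CPM in mutants (12 and 23 counts). In MPP4 it was at 8.68, 4.95, 2.37 and 4.08 CPM in controls and 10.2, 13.1, 13.0 and 13.3 CPM in mutants. These MPP4 levels rest on 14, 11, 3 and 1 counts in controls and 8, 6, 5 and 16 in mutants, below the minimum for the test. Every mutant library was above every control library in each of the 3 populations. Of all genes tested, 4.99% had this order in HSC, 16.8% in MPP1 and 1.45% in MPP4. The MPP4 share is over genes that reached the minimum count, which Psma8 did not.

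The depth-scaled ratio of pooled counts, mutant to control, was 4.18 in HSC (95% interval 2.35 to 7.99), 3.86 in MPP1 (2.17 to 7.06) and 2.28 in MPP4 (1.35 to 3.87); these intervals cover counting error only. The edgeR log2 difference was 2.03 in HSC (SE 0.46, adjusted p = 0.0513, higher in 3 of 3 mutants than in any control), just short of the threshold. With the replicate number as a block, edgeR gave 2.02 with an adjusted p of 0.0228, which passed. That block treats same-numbered libraries as pairs, which is not established in batch C, where differently numbered libraries also correlated. Over 13 HSC fits the adjusted p from edgeR or DESeq2 ran from 0.0108 to 0.533 and passed in 4, while the log2 difference stayed between 1.82 and 2.24. Leaving out either of 2 HSC libraries brought the call: without control 3 the edgeR adjusted p was 0.0478 and without mutant 3 it was 0.0447. In MPP1 the edgeR log2 difference was 1.96 (SE 0.50, adjusted p = 0.168). Tested in MPP4 with no filter on low counts, it was 1.31 (SE 0.65, edgeR adjusted p = 0.944). Within batches, the mutant minus control difference of mean log2(CPM + 2) in HSC was 1.93 in A and 1.65 in C. In MPP4 it was 0.19 in A, 1.12 in B and 1.55 in C. The added 2 CPM makes these differences smaller than log2 ratios of the levels. Without HSC mutant 1 the fitted HSC difference was 1.95 (edgeR adjusted p = 0.453).

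**Figure D4:**
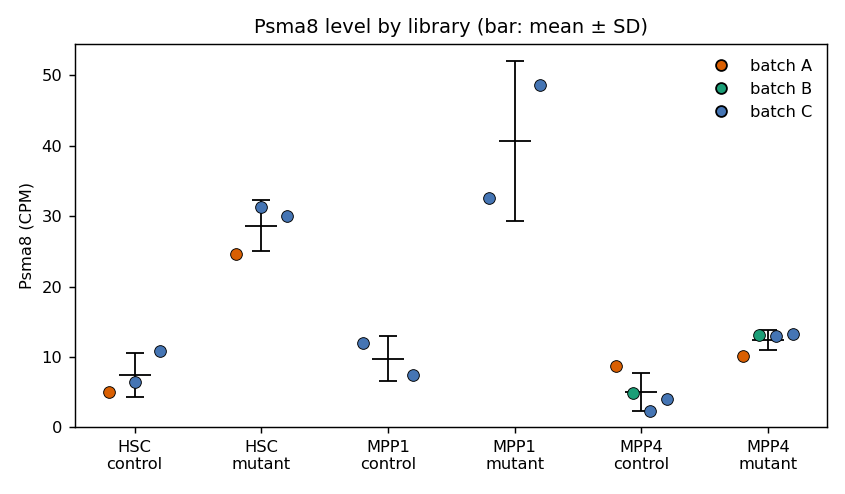
Psma8 level (CPM) in each library by group, coloured by sequencing batch, with the mean and SD of each group. In each population all mutant libraries lie above all control libraries. HSC and MPP1 mutants reach 24.6 to 48.7 CPM and MPP4 mutants 10.2 to 13.3 CPM. The MPP4 libraries held 1 to 16 Psma8 counts each.

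Psma7, the somatic α4 subunit, was the more abundant of the pair in every library. Psma8 made up 1.91% to 4.76% of the summed Psma7 and Psma8 counts in HSC controls and 5.77% to 11.5% in HSC mutants. The share was 2.45% and 4.64% in MPP1 controls and 12.9% and 16.4% in MPP1 mutants, and it overlapped in MPP4 (1.01% to 3.38% and 2.87% to 4.88%). The last 500 bases of the annotated Psma8 transcripts share no 31-base stretch with another gene, so a split of reads with a copy is not apparent there. In the authors' deposited table the Psma8 log2 fold change was 1.14 in HSC (adjusted p 0.984) and 0.82 in MPP1, smaller than the fits above. Whether the size of the Psma8 difference varied between populations was tested directly, and no such difference passed (edgeR adjusted p = 1 for each of the 3 pairs). No other member passed these tests either: 0 of 44 for MPP4 against HSC, beside 0.0283% of all genes, and 0 of 44 for both comparisons with MPP1, beside 0% of all genes.

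The other 7 α subunits had no call in any genotype comparison. Psma4 came closest in HSC, at 0.84 (SE 0.28, edgeR adjusted p = 0.317). It passed when HSC mutant 3 was left out (1.14, edgeR adjusted p = 0.0382).

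The 3 catalytic β subunits of the constitutive core are Psmb6, which cuts after acidic residues, Psmb7, which cuts after basic ones, and Psmb5, which cuts after hydrophobic ones and is the main target of the drug bortezomib. Psmb5 (chr14:54614119-54618022) was at 68.2, 37.8 and 35.4 CPM in HSC controls and 167, 61.8 and 41.8 CPM in HSC mutants. It was at 27.8 and 31.8 CPM in MPP1 controls and 27.2 and 42.3 CPM in mutants, and at 75.6, 47.3, 34.8 and 24.5 CPM in MPP4 controls and 165, 43.7, 31.1 and 53.9 CPM in mutants. HSC mutant 1 and MPP4 mutant 1 were the highest of their populations, and the genotypes overlapped throughout. The fitted differences were 0.81 (SE 0.29) in HSC and 0.55 (SE 0.28) in MPP4, with edgeR adjusted p = 0.326 and 0.751. They were 0.52 without HSC mutant 1 and 0.29 without MPP4 mutant 1. Of its transcript end, 66.9% is shared with another annotated gene, mainly Gm3375, so its counts are uncertain.

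Psmb6 (chr11:70525367-70527858) was at 245, 136 and 185 CPM in HSC controls and 279, 146 and 142 CPM in mutants. In MPP1 it was at 170 and 181 CPM in controls and 125 and 152 CPM in mutants, and in MPP4 at 195, 207, 119 and 85.8 CPM in controls and 281, 203, 169 and 164 CPM in mutants. The genotypes overlapped in HSC and MPP4, and both MPP1 mutants were below both controls. Psmb7 (chr2:38588036-38644087) was at 128.1, 118 and 92.7 CPM in HSC controls and 290, 130 and 134 CPM in mutants, with no overlap. It was at 142 and 108 CPM in MPP1 controls and 76.1 and 121 CPM in mutants, and at 166, 102, 126 and 89.9 CPM in MPP4 controls and 405, 125, 135 and 132 CPM in mutants. The log2 difference of Psmb7 was 0.59 in HSC (SE 0.25, edgeR adjusted p = 0.433) and 0.55 in MPP4 (SE 0.23, edgeR adjusted p = 0.626). It was 0.29 without HSC mutant 1 and 0.28 without MPP4 mutant 1. Of its transcript end, 76.4% is shared with another gene, mainly the neighbouring Nek6, so its counts are uncertain too.

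In the cap, the 6 ATPases that unfold substrates had no call in any comparison of genotypes. The smallest unadjusted p was that of Psmc2 in MPP1, at 65.5 and 67.3 CPM in controls and 109 and 95.2 CPM in mutants (0.62, SE 0.29, edgeR adjusted p = 0.999). The non-ATPase subunit Psmd14 (chr2:61711694-61800376) is the metalloprotease that removes ubiquitin chains at the mouth of the core. It was at 83.2, 90.3 and 65.4 CPM in HSC controls and 188, 95.7 and 91.9 CPM in mutants, with no overlap (0.55, SE 0.26, edgeR adjusted p = 0.486). Without HSC mutant 1 the Psmd14 difference was 0.23. In MPP1 it was at 105 and 54.2 CPM in controls and 111.4 and 123 CPM in mutants, and in MPP4 at 105, 201, 88.5 and 98.0 CPM and 162, 138, 109 and 133 CPM. In all, 5 of 44 members had every HSC mutant above every control (Psma8, Psmb1, Psmb7, Psmd14 and Psmd3; 11.4%), beside 4.99% of all genes tested, and 0 of 44 had every mutant below every control, beside 4.35%. In MPP1 it was 7 of 44 above (15.9%, beside 16.8%) and 6 below (13.6%, beside 17.1%), and in MPP4 0 of 43 in either direction (beside 1.45% above and 1.65% below).

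The activators open the core without the cap. Psme1 and Psme2 form the interferon-responsive PA28αβ, Psme3 the nuclear PA28γ and Psme4 the nuclear PA200, and Psmf1 (PI31) was named as an inhibitor of the core. Psme1 was at 378, 257 and 256 CPM in HSC controls and 540, 295 and 281 CPM in mutants, at 294 and 295 CPM in MPP1 controls and 296 and 355 CPM in mutants, and at 491, 600, 308 and 265 CPM in MPP4 controls and 674, 590, 317 and 397 CPM in mutants. In HSC and MPP4 the genotypes overlapped; the MPP1 mutants were both above the controls, the lower one only just. Psme2 had the smallest unadjusted p of the MPP4 members (0.59, SE 0.22, edgeR adjusted p = 0.514), at 136, 106, 105 and 77.6 CPM in controls and 185, 214, 111.6 and 140 CPM in mutants, with overlap. In HSC it was at 140, 70.0 and 95.4 CPM in controls and 236, 95.7 and 71.8 CPM in mutants, and 75.6% of its transcript end is shared with the copy Psme2b.

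Psme3 was at 118 to 226 CPM in HSC controls and 206 to 236 CPM in HSC mutants, and MPP4 mutant 2 was the highest of all libraries at 345 CPM. Psme4 had fitted differences below 0 in both HSC (-0.11, SE 0.25) and MPP4 (-0.047, SE 0.25). Its values ran from 58.7 CPM in MPP4 mutant 1 to 152 CPM in MPP1 mutant 1, and the genotypes overlapped in each population. Psmf1 was at 20.4 to 76.5 CPM over all libraries, with differences of 0.29 in HSC, 0.11 in MPP1 and 0.32 in MPP4 beside standard errors of 0.29, 0.44 and 0.26. The assembly chaperones, Psmg1 to Psmg4 for the core and Psmd5, Psmd9 and Psmd10 for the cap, had no call.

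The second question is whether the genes differ between the sorted populations. Libraries were compared within ID numbers. Between control MPP4 and HSC, no member was called (edgeR, 0 of 44), beside 9.82% of 10613 genes. The members' differences were balanced, with 22 above 0 (50.1% of all genes) and 22 below, and 2 members had an unadjusted edgeR p under 0.05 (20% of all genes). Of 43 members without Psma8, 42 had intervals within a 2-fold change. In that comparison 9 of 13 S phase genes and 11 of 13 G2 and mitosis genes rose in MPP4 (median log2 differences 0.86 and 1.26, edgeR adjusted p under 0.05), so the division genes and the proteasome genes gave different counts. No test of the difference between these lists was made.

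The smallest unadjusted p between MPP4 and HSC controls was that of the catalytic Psmb6 (-0.45, SE 0.19, edgeR adjusted p = 0.145). Psmb6 was also first between MPP4 and MPP1 controls (-0.65, SE 0.22, edgeR adjusted p = 0.113; 0 of 44 called, beside 3.58%). Between MPP1 and HSC controls, where 0 of 44 members were called beside 0.236%, the first was the ATPase Psmc2 (-0.65, SE 0.23, edgeR adjusted p = 0.550), at 65.5 and 67.3 CPM in MPP1 and 148, 90.3 and 123 CPM in HSC. The MPP1 comparisons rest on 2 ID numbers and MPP4 against HSC on 3 per genotype, and the comparisons share libraries.

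**Figure D5:**
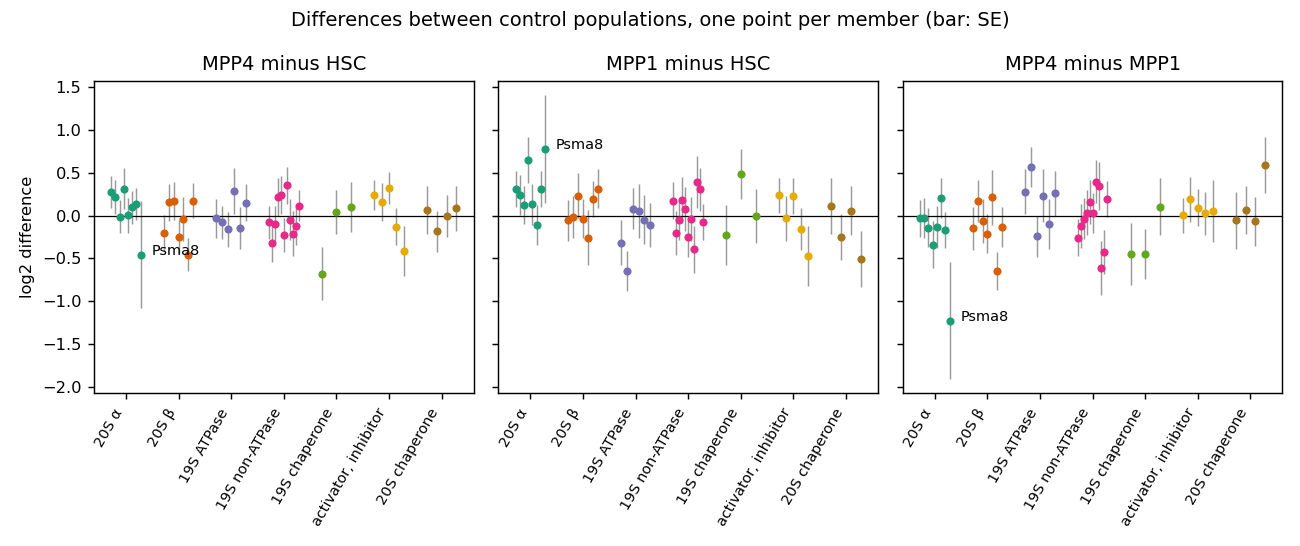
Fitted log2 difference of each member between control populations with its standard error, by role. Between MPP4 and HSC all members lie between -0.68 and 0.35; the low points of MPP4 minus MPP1 are Psma8 (-1.23) and Psmb6 (-0.65).

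In the mutant populations 1 gene was called. Psma8 was lower in MPP4 than in MPP1 mutants (-1.66, SE 0.51, edgeR adjusted p = 0.0454), the only one of 44 members called there, beside 6.2% of all genes in either direction and 3.17% called lower. It was at 10.2 to 13.3 CPM in the MPP4 mutants and at 32.6 and 48.7 CPM in the MPP1 mutants, with no overlap. The call was lost with DESeq2 (adjusted p = 0.258) and without the libraries of the ID number of HSC mutant 1, 3 or 2 (edgeR adjusted p = 0.0665, 0.193 and 0.602). Against HSC mutants the Psma8 difference of MPP4 was -1.25 (SE 0.43, edgeR adjusted p = 0.0512); with edgeR it passed without MPP4 control 2 (adjusted p 0.0484), without HSC control 1 and MPP4 control 1, which share an ID number (0.0421), or without the 3 libraries that share one with HSC control 3 (0.0368). All libraries left out in these passing fits are controls, and the difference between the mutant populations stayed at -1.25. Without the libraries of the ID number of HSC mutant 1 the edgeR adjusted p was 0.163. Without those of HSC mutant 3 or 2 the difference was -1.22 and -1.24. In the main fit no member was called between MPP4 and HSC mutants (0 of 44, beside 12.7%) or between MPP1 and HSC mutants (0 of 44, beside 0.0471%).

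The wider pathway was described from lists of 3 immunoproteasome subunits, 15 further 26S subunits and associated factors, 9 genes of the NFE2L1 pathway and 5 ubiquitin and activating enzyme genes that could be tested. None of these 32 was called in any genotype comparison. With populations compared, 35 genes of these lists could be tested. Among controls 1 was called lower for MPP4 against HSC, beside 9.82% of all genes in either direction. Among mutants 3 were called lower and 1 higher for MPP4 against HSC, beside 12.7%. For MPP4 against MPP1 mutants 1 was called lower, beside 6.2%. The share called was thus not above that of all genes in any of these comparisons. Nfe2l1 itself was at 83.9 ± 17.3 CPM in HSC controls and 57.0 ± 15.5 CPM in HSC mutants (mean ± SD, n = 3 each), and at 71.2 ± 20.5 and 64.3 ± 18.3 CPM in MPP4 (n = 4 each). Mafg, a small Maf partner of NFE2L1, was fitted lower within ID numbers in MPP4 than in HSC. This held in controls (-0.75, SE 0.21, edgeR adjusted p = 0.0148) and in mutants (-0.71, edgeR adjusted p = 0.0191). In mutants it was also fitted lower than in MPP1 (-1.09, edgeR adjusted p = 0.00445). The levels overlapped, at 107 to 161 CPM in HSC controls and 60.9 to 131 CPM in MPP4 controls. In mutants they were 99.2 to 117 CPM in HSC, 146 to 158 CPM in MPP1 and 47.2 to 186 CPM in MPP4. The highest MPP4 mutant was thus above every HSC and MPP1 mutant. In mutants the immunoproteasome subunit Psmb9 was higher in MPP4 than in HSC (0.61, SE 0.18, edgeR adjusted p = 0.0210).

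In the authors' deposited tables, none of the 44 members had an adjusted p under 0.05 in HSC, MPP1 or MPP4. The log2 fold changes there were above 0 for 43, 11 and 36 members, with medians of 0.41, -0.11 and 0.15. The share over all genes of the deposited results is not given here, so these counts have no background beside them. The MPP1 count was lower than in the fits above, where the members were spread evenly, and the reason was not tested.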

How the data were processed

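CEL-Seq2 libraries were measured in 18 samples, with reads processed on mm10, per the submitters' processing notes; the sources used here do not name the aligner, counter or annotation. Levels are counts per 1000000 (CPM) of TMM-scaled libraries. The deposited values are estimated counts: high values fall only on the steps of a correction for collisions among 4096 tags of 6 bases, a step read from the values. The largest member count was 1332, below the ceiling of 36909. The deposited result tables hold, per the file headers, a mean signal (scaled counts), a log2 fold change, a test score and p-values, made by the authors with DESeq2 in R 3.4.0 per the submitters' processing notes.

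Counts were fitted with edgeR 4.0.16 in R 4.3.3 (TMM, filterByExpr with minimum count 10, robust quasi-likelihood) over all genes in each population. Batch was a term in HSC and MPP4 but not in MPP1, whose libraries were all of batch C. Between populations 1 fit of the 18 libraries was blocked on ID number. Values were adjusted by Benjamini-Hochberg (0.05). Differences within batches were taken between mean log2(CPM + 2) of the genotypes, without a fit. DESeq2 1.42.0, RLE factors, other filters, the replicate block, no batch term, batches alone and leaving out replicates were the alternatives. Scripts were tested on simulated counts. Replicates of a group differed by more than counting noise (chi-square divided by its degrees of freedom, 2.96 to 73.9). Same-numbered HSC libraries deviated together (correlations of 0.49, 0.20 and 0.22), and the replicate block treated them as pairs. The 0.49 is that of the batch A pair. In batch C control 2 correlated more with mutant 3 (0.24) than with mutant 2, and control 3 also with mutant 2 (0.12). Pairs within batch C are therefore not established. There the replicate numbers also join other ID numbers in HSC than in MPP1 and MPP4. Named members were the 3 catalytic subunits, Psmd14, the activators, Psmf1, Psma8 and Psmb11, any member called, and otherwise the smallest p per comparison; Psma4 and members named for their level or overlap were added after their values were seen. Members and lists were chosen with earlier results of these data known.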

Additional observations from a re-analysis of the deposited data

Results flagged for a closer look

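Of 24 groups of 4 MPP4 libraries tested (12 measures in 2 groups), 5 held a library far from the others; chance alone marks about 1 in 20. Psmb5 in MPP4 mutant 1 was at 165 CPM (others from 31.1 CPM), and Psmb7 in the same library was at 405 CPM (others from 125 CPM). Psma8 in MPP4 mutant 1 was the low one of its group at 10.2 CPM (highest 13.3 CPM). The levels of that group rest on only 8, 6, 5 and 16 counts, and the part of counting error in this gap was not tested. Psmd14 in MPP4 control 2 was at 201 CPM (lowest 88.5 CPM), and Psme4 in MPP4 control 4 was at 123 CPM (lowest 72.0 CPM).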

How the results depend on the processing

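In HSC, 1 member was called instead of 0 with no filter on low counts and 1 with the replicate block (Psma8 each time), and 0 to 2 when single replicates were left out. In MPP1 the replicate block gave 1 (Psma8, edgeR adjusted p = 0.0410); its 2 pairs are too few to take the numbers as pairs. Between MPP4 and HSC mutants, leaving out ID numbers gave 0 to 1 calls. Between MPP4 and MPP1 mutants the 1 call (Psma8) became 0 with DESeq2, with no filter and with the replicate block. It was 0 to 1 when ID numbers were left out. A minimum count of 30 removed Psma8 before the test, so the 0 calls there do not bear on it. Over all genes, the replicate block moved the count of calls in HSC from 22 to 40 and with no filter it was 0.532% of 21061 genes against 0.241%; in MPP1 they gave 43 and 41 against 18. In MPP4 no filter gave 88, DESeq2 31, no batch term 3 and batches B and C alone 3 against 8. In HSC, DESeq2 gave 14, a minimum count of 30 gave 12 and no batch term 5; a minimum count of 30 gave 5 in MPP1. Between MPP4 and HSC the block gave 694 against 1042 in controls and 704 against 1348 in mutants, and DESeq2 627 and 808. Between MPP4 and MPP1, DESeq2 gave 200 against 380 and 373 against 658, and batch in place of the ID number 220 and 413. Between MPP1 and HSC controls, counts ran from 0 (block) to 71 (no filter) against 25, and in mutants from 0 to 29 against 5. Apart from Psma8, no member was called in any of these fits other than Psma4 without HSC mutant 3. Correlations of same-numbered MPP4 libraries were 0.32, -0.02, 0.34 and -0.01, and the block called no MPP4 member.

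Leaving out replicates moved the HSC median from 0.15 to 0.44, the MPP1 median from -0.07 to 0.10 and the MPP4 median from 0.08 to 0.31. Some uncalled members changed sign. Psme3 in MPP4 was -0.16 in batch C alone, Psme4 in MPP4 was 0.074 in batches B and C alone (chosen after seeing the data), and Psmb6 between MPP4 and MPP1 controls was 0.048 with the replicate block. When single replicates were left out, Psmb5 ranged from 0.52 to 0.99 in HSC and 0.29 to 0.77 in MPP4, Psmb7 from 0.29 to 0.81 and 0.28 to 0.72, and Psmd14 in HSC from 0.23 to 0.83; Psmb5 in MPP1 ranged from -0.11 to 0.53, Psmb6 in HSC from -0.14 to 0.13, Psme3 in MPP4 from -0.043 to 0.50, Psme4 in MPP4 from -0.24 to 0.13 and Psmf1 in MPP1 from -0.20 to 0.39. Without the libraries of the ID number of HSC control 2, Psma8 between control populations was 0.11 (MPP4 and HSC), 0.15 (MPP4 and MPP1) and -0.041 (MPP1 and HSC); otherwise it ranged down to -1.48, -1.89 and up to 1.36. Leaving out the ID number of HSC control 2 left MPP1 control 2, with 4 Psma8 counts, as the only MPP1 control. HSC control 3 and MPP4 control 4, which share the ID number of MPP1 control 2, had 4 and 1 counts. The cause of these shifts was not tested.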
